A study of Rattus norvegicus with 2 samples.

Results

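Connexins and pannexins are membrane proteins that form large channels. A gap junction is made when connexin channels of neighbouring cells dock and join their cytoplasm, so that ions and small molecules such as cyclic AMP pass between them, whereas pannexin channels open to the outside and release ATP. Astrocytes are the most strongly coupled cells of the brain, mainly through connexin 43 and connexin 30, and C6 cells have long served as a weakly coupled glioma line into which connexin genes were put back. The account covers 9 genes, namely the connexin genes Gja1, Gja4, Gjb2, Gjb6, Gjc1 and Gjc3, the pannexin genes Panx1 and Panx2, and Tjp1, which is not a channel gene but encodes ZO-1, a scaffold that binds the tail of connexin 43. A value was taken from an array feature that the platform annotation ties to exactly 1 gene symbol, and where a gene had several such features the one with the highest mean level. This gave 8 of the 9 genes among the 18166 genes measured, each from 1 feature, and Gjc1 is not analysed here.

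The study measured total RNA of 2 colonies, each grown from C6, a rat glioma cell line, on 1 expression array per colony. The colonies, No.8 and No.4, were both called undifferentiated and single, and both were grown in medium with 10% serum. Both also carry one treatment text, which names CHIR99021 (20 µM), an inhibitor of the kinase GSK3, and forskolin (100 µM), which raises cyclic AMP, for 35 days. The labels leave unclear whether the RNA was taken before or after the drugs. Each colony has 1 array and no replicate, so every level is a single measurement and no test was possible. The colony cannot be told apart from its culture or its array.

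Levels are on a log2 scale, and differences are No.8 minus No.4, so that 1 unit is 2-fold. Features differ in how well they bind, so levels were not compared between genes. The floor was set at 4.33, the median over the whole table, and 11069 genes (60.9% of those measured) reached it in No.8, No.4 or both. Olfactory receptor genes, which cells outside the nose rarely express, gave a guide to background, and 99% of their values lay below 5.67. The upper quartile of all array features was 6.37 in each colony, but the share of all genes reaching 5.67 was not counted. Counts against 5.67 below therefore describe the listed genes only and are not set against genes in general. Across the genes past the floor the median difference was 0.04, and the middle of the differences, between the quartiles, ran from -0.22 to 0.30. In the table, 1320 of the 36685 array features (3.60%) carry exactly the same value in both colonies, 250 of them at or above the floor, while only 12 differ by an amount above 0 and up to 0.0005. None of the 8 genes described here is among them.

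Gja1 was the only connexin gene of this set whose signal lay above 5.67, the olfactory receptor guide, in both colonies, and it was lower in No.8. Promoter sequence of Gja1 is shown first, because this is the gene that differed 2-fold. The drugs in the labels act on Wnt and cyclic AMP signalling, whose factors bind short motifs. Both colonies carry the same drug text, and no link of a motif to the difference was tested. The promoter sequence of Gjc3, the connexin gene nearest to 2-fold in the other direction, is shown beside that of Gja1. The sequences are the 250 bases before the start listed by RefSeq, build GRCr8, 5′ to 3′ on the gene's strand, at chr20:36302314-36302563 on the plus strand for Gja1 and chr12:22024568-22024817 on the minus strand for Gjc3. Capitals mark matches on either strand to TGANTCA, the motif of AP-1 (Fos and Jun factors), and to TGACG, the core of the cyclic AMP response element (CRE).
Gja1: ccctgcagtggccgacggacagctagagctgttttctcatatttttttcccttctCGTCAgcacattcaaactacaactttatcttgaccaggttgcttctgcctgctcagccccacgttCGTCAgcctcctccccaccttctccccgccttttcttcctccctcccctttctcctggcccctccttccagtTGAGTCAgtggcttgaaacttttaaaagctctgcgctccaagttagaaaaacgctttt
Gjc3: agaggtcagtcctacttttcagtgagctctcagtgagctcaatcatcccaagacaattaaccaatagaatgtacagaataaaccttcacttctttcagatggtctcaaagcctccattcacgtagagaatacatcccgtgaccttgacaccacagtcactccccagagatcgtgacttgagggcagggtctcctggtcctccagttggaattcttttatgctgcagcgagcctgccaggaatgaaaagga
The Gja1 window held the AP-1 match TGAGTCA, 58 to 52 bases before the start, and 2 matches to the CRE core, read as CGTCA on this strand, 195 to 191 and 130 to 126 bases before it. The Gjc3 window held neither motif.

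Promoter windows of the same length were taken for all 8 measured genes, with 2 windows for Gjb6, and set beside the 33469 windows of the whole RefSeq table. The AP-1 motif was found in 1 of the 9 windows, that of Gja1, against 6.34% of all windows. The CRE core was found in 4 of 9 windows (Gja1, Gjb2, Panx1 and 1 of those of Gjb6), against 18.2% of all windows. The full palindromic CRE, which contains that core, and the TCF/LEF motif ATCAAAG, bound by the factors that beta-catenin joins, were in 0 of 9 windows, against 1.59% and 3.15% of all windows. The TATA motif TATAAA was also in 0 of 9, against 12.9%. The GC-box motif GGGCGG was in 6 of 9, against 30.5%, and Gja1, Gjc3 and Tjp1 were without it. By base composition the Gja1 window was ordinary, with 51.2% G and C, the same as the median of all windows. A match describes these letters only, and none was tested as a binding site.

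Gja1 encodes connexin 43, the main gap junction protein of astrocytes. Its level was 6.86 in No.8 and 7.99 in No.4, a difference of -1.12, or 2.18-fold lower in No.8. Both values lay above 5.67, so the fold did not rest on a level near that guide to background. In RNA from a whole colony, fewer cells with the transcript and less of it per cell cannot be told apart. Among the genes past the floor 5.47% were 2-fold apart in either direction and 2.57% were 2-fold lower in No.8. A difference as large as that of Gja1, in its direction, was found in 1.83% of the other genes past the floor, and in 1.74% of the 2362 genes whose mean level was within 0.5 of that of Gja1. Gja1 was thus toward the edge of the spread but not at its extreme.

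**Figure D1:**
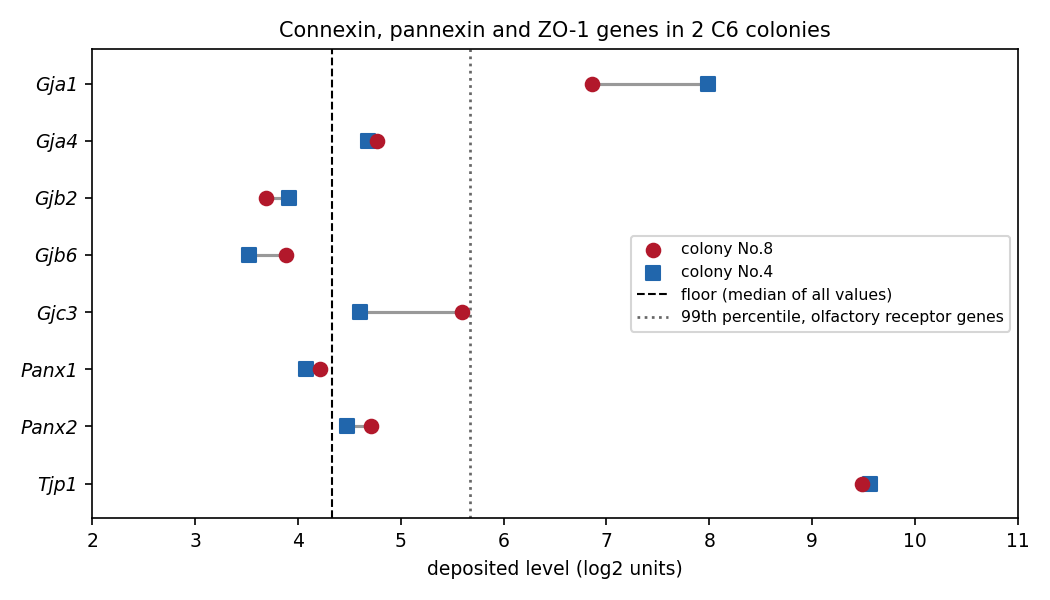
Deposited level (log2 units) of the 8 measured genes, 1 row per gene, with a red circle for colony No.8 and a blue square for colony No.4, 1 array each. Only Gja1 and Tjp1 lie right of the dotted line at 5.67, the 99th percentile of olfactory receptor genes, and the red and blue marks are farthest apart for Gja1 (6.86 in No.8, 7.99 in No.4) and Gjc3 (5.60 in No.8, 4.60 in No.4).

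The other connexin associated with astrocytes was not seen above the floor. Gjb6, which encodes connexin 30, was at 3.88 in No.8 and 3.53 in No.4. Gjb2, which encodes connexin 26 and lies next to Gjb6 in the rat genome, was at 3.69 in No.8 and 3.91 in No.4. All 4 levels were under 4.33, so neither the size nor the opposite signs of these differences (0.35 and -0.22) can be read as expression. In the brain connexin 26 and connexin 30 are found in mature astrocytes and in the meninges. Markers of those cells were mixed. Past the floor were 5 of 8 astrocyte and 5 of 8 meningeal and fibroblast markers, beside 60.9% of all genes. The astrocyte water channel gene Aqp4 was at 3.85 in No.8 and 3.77 in No.4, and the glutamate transporter gene Slc1a3 at 4.12 in No.8 and 3.88 in No.4, all under the floor. S100b, a marker that C6 is known for, was at 8.46 in No.8 and 8.24 in No.4. Of the 8 astrocyte markers measured, only Aldoc and S100b passed 5.67. Gfap, the astrocytic filament gene, was at 5.17 in No.8 and 4.11 in No.4, which is under the floor. Of the 5 astrocyte markers past the floor it was the only one at least 2-fold apart, beside 5.47% of all genes past the floor. Counted from the floor Gfap was at least 1.79-fold higher in No.8, short of 2-fold, and counted from 5.67 no difference was left. Of the meningeal and fibroblast markers, Dcn, Lum and Slc6a13 were under the floor in both colonies, while Pdgfra was at 9.53 in No.8 and 10.24 in No.4. Col1a1 was at 10.64 in No.8 and 8.25 in No.4, and Tbx18 at 4.75 in No.8 and 6.37 in No.4. Of the 5 past the floor, only Col1a1 and Tbx18 were at least 2-fold apart (for Tbx18, 1.62-fold counted from 5.67), beside the same 5.47%.

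Gjc3 encodes connexin 29 of rodents, a protein of myelinating oligodendrocytes and Schwann cells. It was at 5.60 in No.8 and 4.60 in No.4, a difference of 0.99, or 1.99-fold, which falls just short of the 2-fold line. Both levels were above the floor but under 5.67, and counted from 5.67 no difference was left. A difference of at least this size in this direction was seen in 2.96% of the other genes past the floor and in 4.11% of the 1995 genes of like level. Of the 8 oligodendrocyte markers measured 2 were higher in No.8 and 6 lower, with a median difference of -0.12. The count takes in Mag and Mobp, both under the floor, and the small differences of Mbp (-0.04) and Mog (-0.11). It therefore gives no clear direction to set beside that of Gjc3. Olig2, a factor of the oligodendrocyte lineage, was the only one at least 2-fold apart, at 4.22 in No.8, under the floor, and 6.36 in No.4. Sox10, which drives oligodendrocyte and Schwann cell genes, was at 9.36 in No.8 and 9.69 in No.4. The myelin genes Mag and Mobp were under the floor in both colonies, while Mbp and Mog were above it but under 5.67. Cnp, 1 of the 2 markers higher in No.8, was at 8.97 in No.8 and 8.49 in No.4. A link of the Gjc3 value to these markers was not tested.

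Gja4 encodes connexin 37, known from the endothelium of arteries. It was at 4.77 in No.8 and 4.68 in No.4, just above the floor and under 5.67 in both, with a difference of 0.08. As many as 82.5% of the other genes past the floor differed at least as much. Of 6 endothelial markers measured, Cdh5, Vwf and Emcn were under the floor in both colonies, Vwf with the identical value of 3.49 in both. Cldn5 was just past the floor in No.8, at 4.38, and under it in No.4, at 4.20. Tek was at 5.97 in No.8 and 4.84 in No.4, and Flt1 at 6.70 in No.8 and 7.44 in No.4. Of the 3 endothelial markers past the floor, Tek was the only one at least 2-fold apart (1.23-fold counted from 5.67), beside 5.47% of all genes past the floor.

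**Figure D2:**
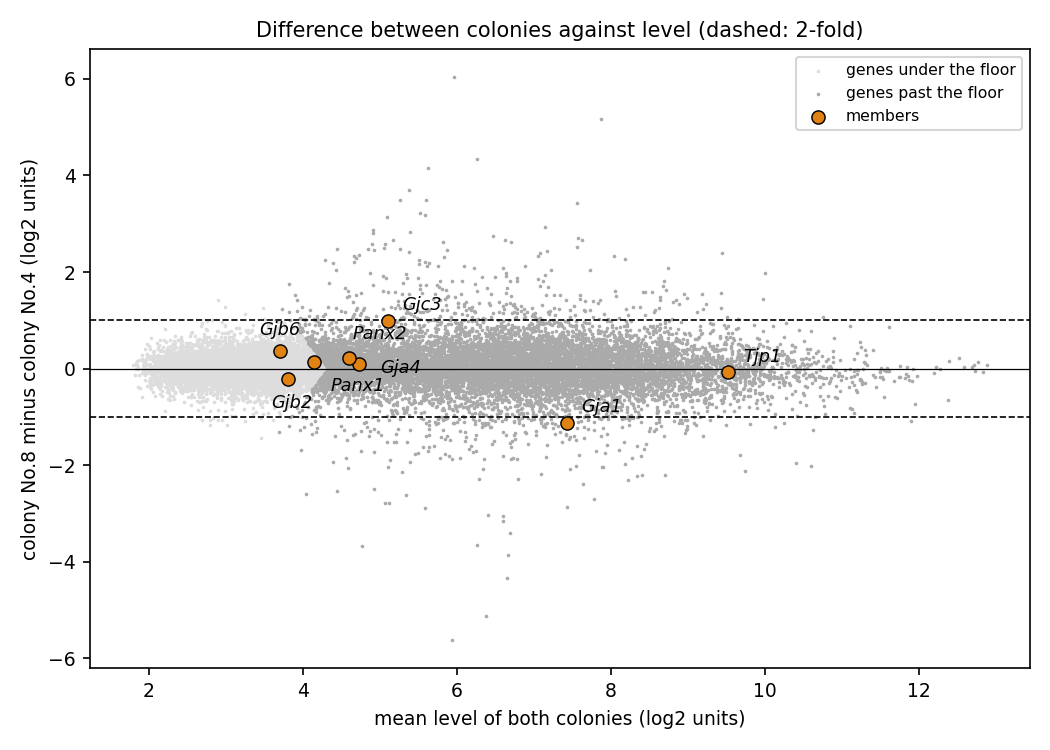
Difference between the colonies (No.8 minus No.4, log2 units) against the mean level of both colonies, with 1 point per gene for all 18166 genes and the 8 described genes in orange. Gja1 lies just below the lower dashed line (2-fold lower in No.8) at -1.12, Gjc3 just under the upper one at 0.99, and the other 6 lie close to 0.

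The pannexin genes gave low signals. Panx1, the widely expressed pannexin that releases ATP, was at 4.21 in No.8 and 4.08 in No.4, under the floor in both. Panx2, a pannexin best known from brain, was at 4.71 in No.8 and 4.48 in No.4, a difference of 0.23. The Panx2 levels were above the floor and under 5.67. Of the other genes past the floor 55.5% differed at least as much as Panx2, while the Panx1 difference, between levels under the floor, cannot be read as expression.

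Tjp1, the gene of the ZO-1 scaffold that sits at the rim of gap junction plaques and in tight and adherens junctions, was bright and nearly equal in the colonies. It was at 9.49 in No.8 and 9.56 in No.4, a difference of -0.07. Of the other genes past the floor 84.9% differed at least as much. Tjp1 therefore lacked the difference seen for Gja1.

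The median difference of the 8 genes was 0.11 against 0.03 over all genes measured. This median takes in Gjb2, Gjb6 and Panx1, which were under the floor in both colonies and whose differences cannot be read as expression. Of the 5 past the floor, 1 was 2-fold lower in No.8 and 0 were 2-fold higher, beside backgrounds of 2.57% and 2.91%. At 1.5-fold the count was 2 of 5 (Gja1 and Gjc3), against 17.8% of all genes past the floor. With 5 genes, 1 gene more or less changes these shares by more than the backgrounds themselves.

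The rest of the family was dim. Of 16 further connexin and pannexin genes, 11 had a value. Of these, 3 were past the floor in at least 1 colony, beside 60.9% of all genes, and 0 reached 5.67. None was 2-fold apart, beside 5.47% of all genes past the floor. Gja6, which encodes connexin 33, a close relative of connexin 43 known from the rodent testis, was at 3.37 in No.8 and 4.35 in No.4. The Gja6 difference of -0.98 had the sign of that of Gja1, but its higher level was barely at the floor, and whether the Gja6 feature also bound Gja1 transcripts was not tested. Gja5, which encodes connexin 40 of arteries and heart, was at 4.40 in No.8 and 4.21 in No.4. Gjb5, a connexin gene of skin and placenta, carried the identical value of 4.71 in both colonies and is thus 1 of the 1320 features described above. Gjb1, which encodes connexin 32 of Schwann cells and oligodendrocytes, was at 2.98 in No.8 and 3.14 in No.4, and Gjd2, which encodes connexin 36 of electrical synapses between neurons, at 4.17 in No.8 and 3.74 in No.4. Both, like Panx3, were under the floor, and they are named here after their values were seen.

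**Figure D3:**
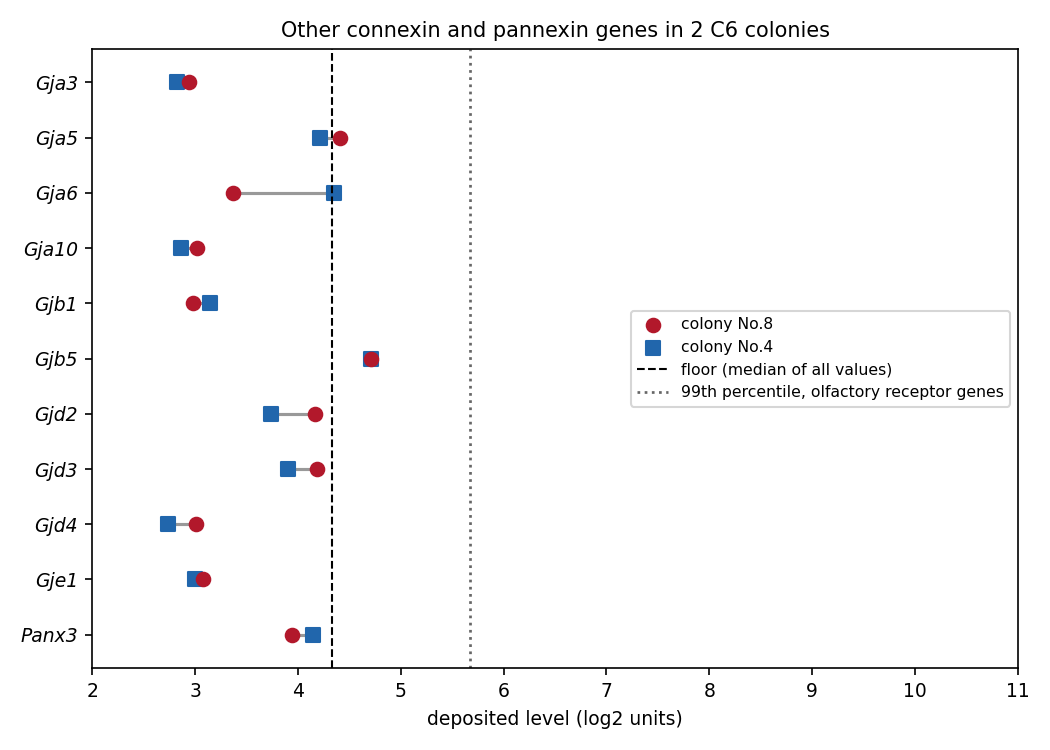
Deposited level (log2 units) of 11 further connexin and pannexin genes, 1 row per gene, with a red circle for colony No.8 and a blue square for colony No.4, 1 array each. No mark reaches the dotted line at 5.67, and Gja5, Gja6 and Gjb5 are the only rows with a mark right of the dashed floor at 4.33.

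Among partners of connexins at the membrane, N-cadherin was the one 2-fold apart. Of 20 measured scaffold and adhesion genes, 14 were past the floor, beside 60.9% of all genes. Of the 14, 1 was 2-fold higher in No.8 and 0 were 2-fold lower, near the 5.47% of all genes in either direction. At 1.5-fold, 3 of the 14 (Cdh2, Ctnnb1 and Dbn1) were apart, beside 17.8% of all genes. Cdh2, whose product N-cadherin holds the membranes of neighbouring cells together, was at 9.95 in No.8 and 8.41 in No.4, or 2.90-fold higher in No.8. Ctnnb1, the gene of beta-catenin, which links cadherins to the cytoskeleton and is stabilised when GSK3 is blocked, was at 10.30 in No.8 and 9.41 in No.4 (a gap of 1.86-fold). Dbn1, the gene of drebrin, an actin-binding protein that binds connexin 43 in rodent astrocytes, was at 7.70 in No.8 and 6.98 in No.4 (a gap of 1.65-fold). Tjp3, a relative of Tjp1, was at 5.69 in No.8 and 5.14 in No.4. Cttn, the gene of the actin-binding protein cortactin, differed by 0.31 and Ctnna1, the gene of alpha-catenin, by -0.28. The median difference of the list was 0.14.

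Genes that act on connexin 43 after it is made were nearly all past the floor, beside 60.9% of all genes. Of 23 measured kinase, trafficking and turnover genes, 22 were past the floor and 0 were 2-fold apart in either direction, with a median difference of 0.04. At a background of 5.47%, a count of 0 among 22 is near that of all genes. At 1.5-fold, 2 of the 22 (Prkca and Smurf2) were apart, beside 17.8% of all genes past the floor. The largest difference was that of Prkca, a protein kinase C gene whose product phosphorylates connexin 43. Prkca was at 9.93 in No.8 and 10.77 in No.4 (a gap of 1.79-fold). Smurf2, a ubiquitin ligase gene linked to connexin 43 breakdown in rat cells, was at 7.75 in No.8 and 8.53 in No.4. Erp29, the gene of a chaperone of the endoplasmic reticulum that handles connexin 43, was at 7.15 in No.8 and 6.61 in No.4. Src, the gene of a tyrosine kinase that closes connexin 43 channels, differed by 0.34. Ptpn11, the gene of the phosphatase SHP2, differed by 0.49 and Eps15, an endocytic adaptor gene, by 0.32.

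**Figure D4:**
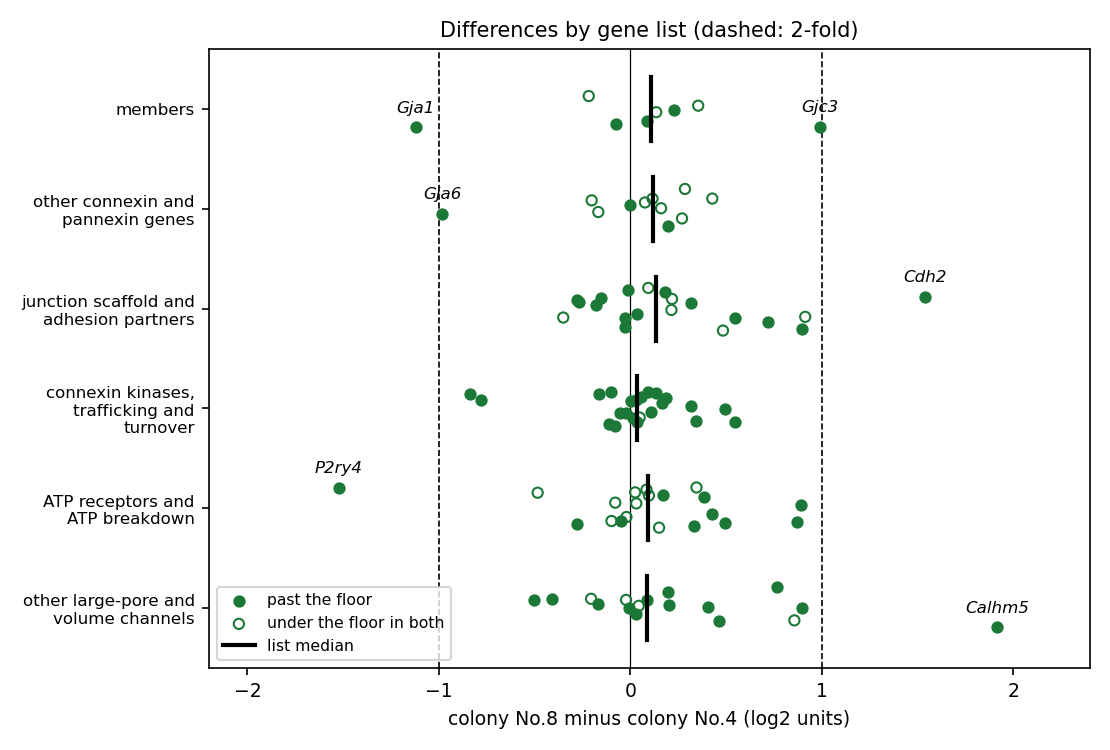
Difference between the colonies (No.8 minus No.4, log2 units) of each measured gene in 6 lists, with filled points for genes past the floor, open points for genes under it in both colonies and a black bar for the list median. All 6 medians lie between 0.04 and 0.14, and Gja1 and P2ry4 on the lower side and Cdh2 and Calhm5 on the higher side are the only points past the dashed 2-fold lines.

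ATP released through pannexin channels or undocked connexin channels acts on receptors of the cell surface, and most of these receptor genes stayed under 5.67. Of 20 measured genes for ATP and adenosine receptors and for ATP breakdown, 10 were past the floor and 3 reached 5.67. Of all genes 60.9% were past the floor. P2rx7, the gene of the ATP-gated channel that works with Panx1 in other cells, was at 3.37 in No.8 and 3.47 in No.4, under the floor. Of the 10 past the floor 1 was 2-fold apart, beside 5.47% of all genes past the floor. This was P2ry4, a nucleotide receptor gene, at 4.41 in No.8 and 5.94 in No.4 (a gap of 2.88-fold, but 1.20-fold counted from 5.67). The ATP-gated channel gene P2rx5 was at 4.79 in No.8 and 3.90 in No.4, and the adenosine deaminase gene Ada at 5.03 in No.8 and 4.16 in No.4, all under 5.67. The other nucleotide receptor genes past the floor, P2rx4 and P2ry2, differed by 0.38 and 0.50. Nt5e, the gene of the surface enzyme CD73 that makes adenosine, was at 6.94 in No.8 and 6.51 in No.4.

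Several other channel genes of large solutes gave signals above 5.67. Of 17 such genes, all measured, 13 were past the floor, beside 60.9% of all genes, and 11 reached 5.67. At 1.5-fold, 3 of the 13 (Lrrc8c, Ttyh3 and Calhm5) were apart, all higher in No.8, beside 17.8% of all genes past the floor. Lrrc8a, which encodes the subunit that every volume-regulated anion channel needs and is named here after its values were seen, was at 7.95 in both colonies. Its partner Lrrc8c was at 7.96 in No.8 and 7.19 in No.4 (a gap of 1.70-fold), and Lrrc8d, likewise named after its values were seen, differed in the other direction, by -0.41. Calhm5, of a family of ATP-conducting channels, was at 5.997 in No.8 and 4.08 in No.4, which is under the floor. Calhm5 was the only gene of this list 2-fold apart, beside 5.47% of all genes past the floor. Counted from the floor it was at least 3.18-fold higher in No.8, and counted from 5.67 it was 1.25-fold higher. Of the tweety family, Ttyh3 was at 7.92 in No.8 and 7.02 in No.4 (a gap of 1.86-fold). The mitochondrial pore gene Vdac2 differed by -0.50. Over all 5 lists of relatives and partners, 3 of the 62 genes past the floor were 2-fold apart (4.84%), close to the 5.47% of all genes past the floor.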

How the data were processed

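Total RNA of 2 C6 colonies was hybridised, per the labels' protocols after biotin labelling of sense cDNA, to 1 expression array each. The log2 levels were used as deposited by the authors. Base 2 was inferred from values of up to 13.3, above the natural log (11.1) of a 16-bit signal. The software, background correction and normalization are steps the sources here do not name. No detection calls were used. Column medians were 4.31 in No.8 and 4.34 in No.4. Platform annotation gave 18511 features 1 symbol, 575 several and 17599 none, and all 8 measured genes kept their symbol in RefSeq. The members and lists were chosen with earlier results of these data known. In each list of relatives and partners, up to 6 genes past the floor with the largest differences were named, besides genes a sentence turns on. Marker lists covered astrocytes, oligodendrocytes, endothelium, meningeal fibroblasts, neurons and microglia. Of 7 neuron markers measured 3 were past the floor, and 1 of the 3 was 2-fold apart (Gad1, at 7.62 in No.8 and 8.66 in No.4). Of 7 microglia markers measured 3 were past the floor and 0 were 2-fold apart. The share of all genes past the floor was 5.47%. The call was a fixed fold without a test, since each colony had 1 array, and the number of arrays limits the precision. The step that counts genes past a fold was checked on simulated levels with known changes. Work was done in Python 3.11.15 with pandas 2.3.3 and statsmodels 0.14.6.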

Additional observations from a re-analysis of the deposited data

How the results depend on the processing

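The difference of Gja1 stayed negative under all 10 alternatives, between -1.16 (centring) and -0.81, but most of these could not reverse its sign. Gja1 has 1 feature and both its levels lay above every floor used. The feature and floor alternatives therefore left -1.12 unchanged by construction, and an offset cannot change a sign. An offset of 64 added on the linear scale, which shrinks differences by construction, gave -0.81, so that 0 of the 8 genes were 2-fold apart. With this offset 1.51% of all genes past the floor were 2-fold apart. With quantile normalization 2 of the 8 were, since Gjc3 reached 1.02, beside 5.51% of all genes past the floor. At 1.5-fold 2 of the 8 were apart, where the background was 17.8%. Gjc3 was 0.35 with the offset. Of relatives and partners 3 were 2-fold apart. This became 1 with the offset, 12 at 1.5-fold, and 1 (Cdh2) with levels under 5.67 raised to it, an alternative chosen after seeing the data. The share over all genes moved likewise, to 1.51% with the offset, 17.8% at 1.5-fold and 2.09% with levels raised to 5.67. The remaining alternatives (centring, lowess trend, mean or dimmest feature, other floors) left the counts at 1 for the 8 genes and at 3 or 4 for the others. In them the share of all genes counted that were 2-fold apart ran from 3.06% to 6.33%. No paired analysis was possible because each colony has 1 array. Without detection calls, levels under 5.67 cannot be told from background by the olfactory receptor guide. A second guide was lower, since 99% of the values of 159 vomeronasal receptor genes lay below 4.45. Both levels of Gjc3, Gja4 and Panx2 lay above 4.45 but under 5.67, so their standing depends on the guide.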

Other observations

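Features for microRNA genes are on the array as well, and those of Mir1 and Mir206 were looked up after the other values were known, because miR-1 and miR-206 act on Gja1 transcripts in rodent muscle. Their mature sequences (RefSeq, build GRCr8) share the seed, bases 2 to 8, shown in capitals.
rno-miR-1-3p: uGGAAUGUaaagaaguguguau
rno-miR-206-3p: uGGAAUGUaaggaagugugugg
The Mir1 feature was at 1.99 in No.8 and 2.11 in No.4, and the Mir206 feature at the identical value of 2.07 in both, far under the floor of 4.33. These features are annotated to the microRNA genes, and levels of the mature strands were not measured.

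In gene order on the RefSeq assembly, the protein-coding neighbours of Gja1 that had a value were all under 2-fold apart. Msl3l2 was at 4.66 in No.8 and 4.69 in No.4, Hsf2, the gene of a heat shock factor, at 7.45 in No.8 and 7.80 in No.4, and Serinc1 at 8.96 in No.8 and 8.59 in No.4. Near Gjb6, Cryl1 was at 5.19 in No.8 and 5.87 in No.4.

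Exactly equal values in both colonies were found for 635 of the 18166 genes, 145 of them past the floor. A difference of 0 for such a gene, Gjb5, Vwf and Mir206 included, cannot be taken as an independent measure of equality until the step that made these values is known.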
